A study of Homo sapiens with 17 samples.

Results

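The 50 genes described here encode the machinery that copies DNA in S phase. They were taken by name from a list of replication and S phase genes that was drawn up with earlier results of these data known, and all 50 were found among the 25548 gene symbols of the expression table. RNA sequencing was done on Jurkat, a human leukaemia line of T cell origin in established culture, and the agent tested was ILT3.Fc, a soluble fusion of an antibody Fc to the outer domains of ILT3, an inhibitory receptor encoded by LILRB4. Jurkat is a single tumour line that cycles in culture without activation, which limits it as a model of T cells. The groups were Jurkat cells exposed to 25 µg/ml or 12.5 µg/ml ILT3.Fc, and untreated Jurkat cells (0 µg/ml), each for 6, 12 or 24 h. Every group had 2 libraries except untreated cells at 12 h, which had 1, giving 17 libraries in 9 groups. All groups came from the same cell line and carried no other labelled treatment, no culture with a control Fc protein is among the libraries used here, and the labels do not say whether duplicates come from separate cultures. The p-values therefore cover only the spread between these libraries, which may be technical.

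Replication is prepared in G1, when the origin recognition complex, CDC6 and CDT1 load the ring of MCM2, MCM3, MCM4, MCM5, MCM6 and MCM7 onto DNA, a step called licensing that geminin (GMNN) blocks once S phase begins. In S phase, CDC45 and the GINS complex join the ring to make the active helicase, polymerase alpha with primase starts each strand, polymerases epsilon and delta extend the leading and lagging strands on the sliding clamp PCNA, and flap endonuclease and ligase join the fragments. Many of these genes are known targets of the E2F transcription factors, which switch them on late in G1, while genes of G2 and mitosis are known to be switched on later in the cycle. In bulk RNA, fewer cells in S phase and less RNA of a gene per cell cannot be told apart.

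The values are FPKM, fragment counts divided by gene length and by the number of fragments mapped in that library. FPKM keeps no read count, and the depth is unknown except in relative terms. Relative depth recovered from low genes was 0.742 to 1 of the deepest library at 25 µg/ml, 0.724 to 0.927 at 12.5 µg/ml and 0.671 to 0.913 in untreated cells. The T lineage markers were high in every library (CD3D at 508 to 652 FPKM, CD3E at 303 to 383 FPKM), the B cell markers MS4A1 and PAX5 reached at most 0.058 FPKM although CD79A stood at 33.4 to 48.1 FPKM, and HBB, EPCAM, KRT19 and CDH1 were listed at 0. Low values were present for the erythroid marker HBA1 (0.066 to 1.72 FPKM), the myeloid marker CD68 (1.802 to 3.215 FPKM) and the NK marker PRF1 (0.936 to 2.216 FPKM). The other myeloid and NK markers listed reached at most 0.438 FPKM (NCAM1). A pair of libraries stood apart. In replicate 1 of 12.5 µg/ml at 6 h, deviations from the mean library followed gene length (Spearman correlation across genes of -0.60), and in replicate 2 of 25 µg/ml at 24 h they followed GC content (0.57). Other libraries also followed GC content or length, less strongly. At 24 h the GC correlations were 0.02 and -0.38 in untreated cells, and 0.14 in replicate 1 of 25 µg/ml. At 6 h they were 0.12 and 0.07 in untreated cells, and -0.24 and -0.28 at 25 µg/ml. The GC correlations at 25 µg/ml thus lay below the untreated ones at 6 h and above them at 24 h. Sequencing lane 4 held every 24 h library with replicate 1 of each 6 h group, and lane 5 held the 12 h libraries with replicate 2 of each 6 h group.

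Promoter sequences are shown for the members that were called for 25 µg/ml against untreated cells both over all times and at 24 h and that have an entry in the promoter table used here, because these members differed in direction. The sequences are from RefSeq on GRCh38.p14, 5′ to 3′ on the strand of the gene, from 250 bases before the annotated start to 50 bases after it. Capitals mark any match, on either strand, to an E2F word, here TTTCCCGC, TTTCGCGC, TTTGCCGC or TTTGGCGC.
MCM6 (chr2:135876394-135876693, minus strand): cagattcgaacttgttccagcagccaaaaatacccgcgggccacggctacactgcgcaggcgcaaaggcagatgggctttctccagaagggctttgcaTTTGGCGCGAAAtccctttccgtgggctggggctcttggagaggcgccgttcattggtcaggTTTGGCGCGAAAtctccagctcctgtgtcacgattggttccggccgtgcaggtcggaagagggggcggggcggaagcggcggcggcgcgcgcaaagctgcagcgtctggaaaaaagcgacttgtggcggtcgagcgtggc
POLA1 (chrX:24693668-24693967, plus strand): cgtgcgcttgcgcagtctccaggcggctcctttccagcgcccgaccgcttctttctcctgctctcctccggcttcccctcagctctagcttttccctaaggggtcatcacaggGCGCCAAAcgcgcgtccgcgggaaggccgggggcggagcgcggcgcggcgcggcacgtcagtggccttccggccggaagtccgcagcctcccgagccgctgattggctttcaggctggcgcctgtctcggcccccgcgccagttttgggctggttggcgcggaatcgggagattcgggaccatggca
TIMELESS (chr12:56449377-56449676, minus strand): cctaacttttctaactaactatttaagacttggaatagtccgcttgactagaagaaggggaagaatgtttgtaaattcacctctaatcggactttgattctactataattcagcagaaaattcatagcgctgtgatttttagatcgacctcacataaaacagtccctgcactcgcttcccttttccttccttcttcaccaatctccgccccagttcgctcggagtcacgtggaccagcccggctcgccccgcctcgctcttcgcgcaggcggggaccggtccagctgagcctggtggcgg
RFC5 (chr12:118016453-118016752, plus strand): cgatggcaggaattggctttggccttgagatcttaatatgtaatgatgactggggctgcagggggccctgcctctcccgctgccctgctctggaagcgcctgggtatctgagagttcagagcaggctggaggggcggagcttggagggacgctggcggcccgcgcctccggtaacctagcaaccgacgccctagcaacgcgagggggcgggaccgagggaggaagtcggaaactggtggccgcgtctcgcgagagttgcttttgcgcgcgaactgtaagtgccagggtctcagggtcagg

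MCM6 and POLA1 were lower at 25 µg/ml than in untreated cells, and TIMELESS and RFC5 were higher. The MCM6 promoter held 4 matches, as 2 copies of TTTGGCGCGAAA in each of which TTTGGCGC overlaps the reverse complement of TTTCGCGC, with first bases at -152, -148, -90 and -86 from the start. The POLA1 promoter held 1 match, GCGCCAAA on its own strand, at -137, and the TIMELESS and RFC5 promoters held none. A promoter was found for 44 of the 50 members (not for MCM4, MCM5, GINS4, POLD3, RPA2 and RPA3), 56 promoters in all. E2F words were present in 22 of these 56 promoters (39.3%), against 607 of 11682 promoters of tested genes (5.20%) and 3.31% of all 35116 promoters in the table. Counted by gene, 21 of 44 members (47.7%) held a match, against 7.04% of tested genes. The CCAAT box (letters CCAAT, either strand) was in 60.7% of member promoters and 35.3% of tested ones, and the cell cycle homology element (letters TTTGAA, either strand) was in 3.57% and 10.3%, while TTTGAA was in 60.6% of the 33 promoters found for 27 of 32 G2 and mitotic genes. None of the E2F matches printed here overlapped a CCAAT or TTTGAA match. By outcome over all times, E2F words were in 4 of the 6 members called lower with a promoter, in 0 of the 2 called higher and in 17 of the 36 not called. These are matches of letters in a fixed window, and neither a match nor its absence shows whether a factor binds.

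All 50 members were expressed well above the filter used for testing (a mean of at least 1 FPKM over all libraries). Their means per gene length ran from 19.1 FPKM for GINS4, a GINS subunit, to 534 FPKM for TYMS, the thymidylate synthase that makes dTMP, which placed them between percentiles 57.3 and 99 of the 12015 genes tested. After TYMS came the clamp PCNA at 319 FPKM, MCM7 at 268 FPKM, the ribonucleotide reductase subunit RRM2 at 209 FPKM and the polymerase delta subunit POLD2 at 184 FPKM. TYMS overlaps ENOSF1 on the opposite strand and the labels do not state strand-specific counting, so reads of the pair cannot be told apart, and PCNA and RRM2 have processed pseudogenes that may share their reads.

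**Figure D1:**
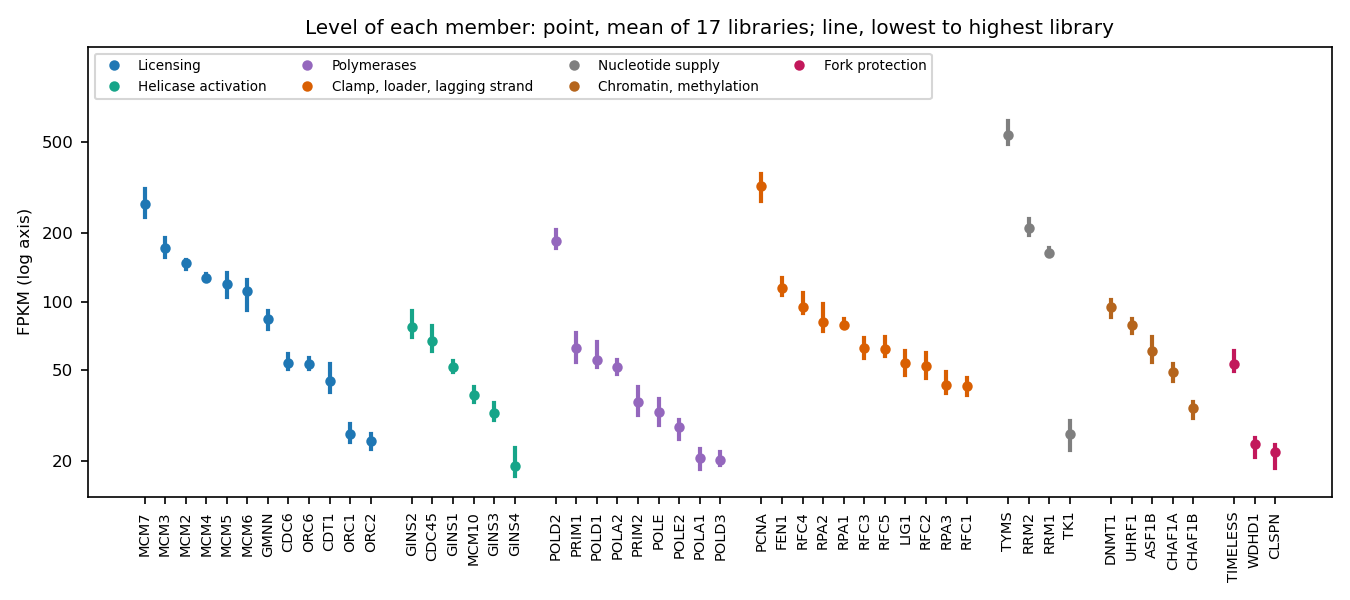
Level of each of the 50 members in FPKM on a log axis, grouped by role, with the point at the mean of the 17 libraries and the line from the lowest to the highest library. TYMS, PCNA and MCM7 lead, the MCM ring subunits sit between 111 and 268 FPKM, and GINS4 is lowest at 19.1 FPKM.

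The ring subunits, which act as 1 of each per ring, differed in mean level, from 111 FPKM for MCM6 and 120 FPKM for MCM5 through MCM4 at 127 FPKM, MCM2 at 148 FPKM and MCM3 at 171 FPKM to MCM7 at 268 FPKM. The ranges over libraries of MCM4 (123 to 132 FPKM), MCM5 (104 to 134 FPKM) and MCM6 (92.2 to 124 FPKM) overlapped. Overlapping ranges do not show the order within a library. MCM5 lay above MCM6 in every untreated library and in every library at the higher ILT3.Fc dose. Every MCM7 value lay above every MCM3 value. Between libraries the members varied little. The median SD over the 17 libraries was 0.0736 on the log2(FPKM + 1) scale, against 0.0956 for all genes tested, which were not matched to the members in level. The single-strand binding subunit RPA1 (SD 0.027), the reductase subunit RRM1 (0.028) and MCM4 (0.032) varied least, and MCM6 (0.125), MCM7 (0.124) and the polymerase epsilon catalytic subunit POLE (0.117) varied most.

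The question put to the dose groups was which transcripts differ between cells exposed to ILT3.Fc and untreated cells. Averaged over 6, 12 and 24 h, 8 members were lower and 2 were higher at 25 µg/ml than in untreated cells, by 0.10 to 0.20 on the log2 scale. The lower ones were MCM5, MCM6, CDC45, GINS4, POLA1, RFC2, LIG1 and UHRF1, and the higher ones were RFC5 and TIMELESS. That is 10 of 50 members (20%), against 9.47% of all genes tested, of which 1138 were called with 657 higher (5.47%) and 481 lower (4%) (limma on log2(FPKM + 1), two-sided, adjusted by Benjamini-Hochberg over 12015 genes, called under 0.05). All genes tested were not matched to the members in level or precision, and the median SE was 0.0309 over the members and 0.0446 over all genes. Among genes with a mean of at least 5 FPKM, 11.1% were called and the count of members stayed at 10. The median change was -0.04 over the members and 0.02 over all genes tested, and 36 of 50 members (72.0%) had a negative value, against 42.7% of all genes. At an unadjusted p under 0.05 there were 18 members (36%, against 25.9% of all genes), 14 lower (10.5% of all genes) and 4 higher (15.4% of all genes). The split depends on scaling. With libraries centred on their medians, 12 members were called lower and 0 higher, and the all-gene split became 393 higher and 765 lower with a median of -0.01. Quantile normalization gave 9 lower and 3 higher, with 9.92% of all genes called.

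**Figure D2:**
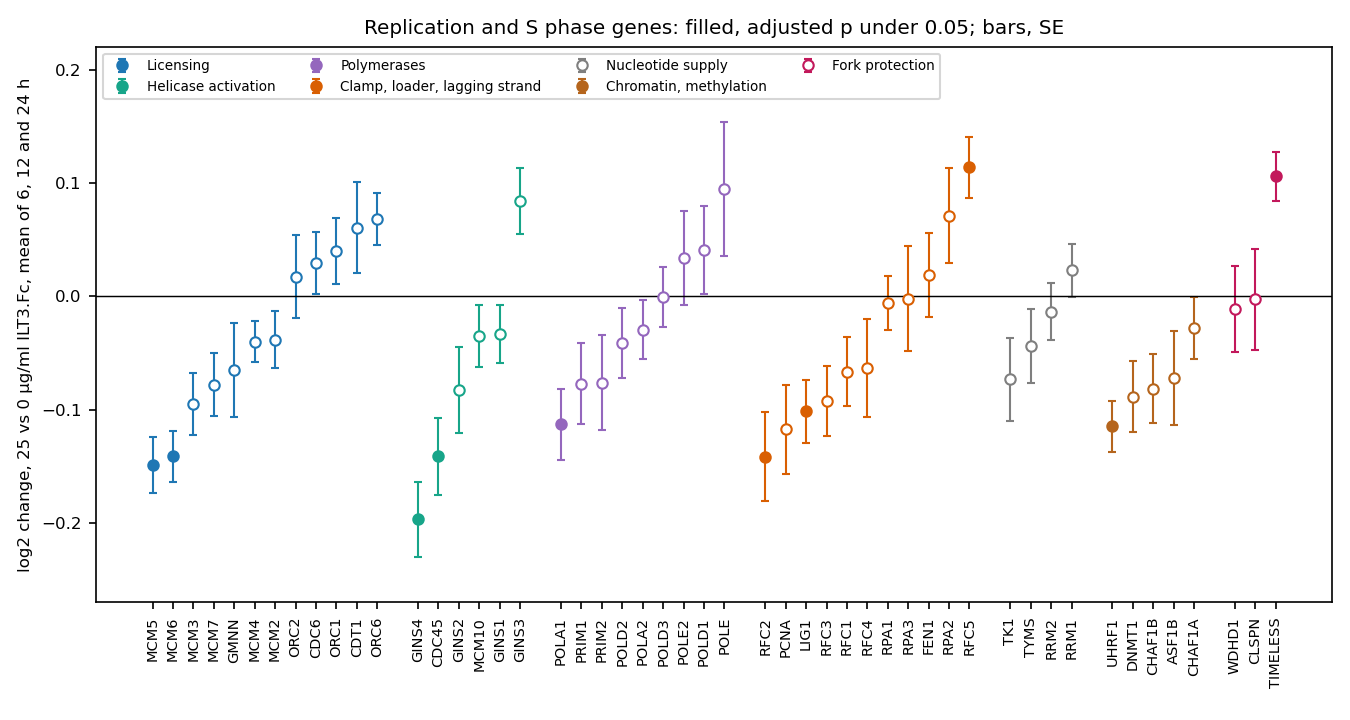
Log2 change for 25 against 0 µg/ml ILT3.Fc, averaged over 6, 12 and 24 h, for each of the 50 members by role, with SE bars; filled points have an adjusted p under 0.05. The 8 filled points below 0 lie between -0.20 (GINS4) and -0.10 (LIG1), and the 2 above 0 are RFC5 and TIMELESS at 0.11 each.

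Among the 12 licensing genes, 2 were called, both subunits of the MCM ring. MCM5 had 122 and 122 FPKM at 25 µg/ml and 6 h, 112 and 113 FPKM at 12 h and 104 and 110.3 FPKM at 24 h, against 133 and 134 FPKM, 126 FPKM, and 122 and 117 FPKM in untreated cells at those times. The treated libraries lay below the untreated ones at each time, and the log2 change was -0.15 (SE 0.0246, adjusted p = 0.00474). MCM6 had 120.1 and 118 FPKM at 25 µg/ml and 6 h, 104 and 108 FPKM at 12 h and 92.8 and 92.2 FPKM at 24 h, against 122 and 122 FPKM, 114 FPKM, and 113 and 113 FPKM in untreated cells. Its groups were separate at every time and the gap was widest at 24 h. The change over all times was -0.14 (SE 0.0225, adjusted p = 0.00403).

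The other ring subunits had values in the same direction that did not pass the test, at -0.09 for MCM3 (adjusted p = 0.0546), -0.08 for MCM7 (0.108), -0.04 for MCM4 (0.197) and -0.04 for MCM2 (0.384). The loaders and the origin recognition complex gave small positive values, 0.07 for ORC6 (0.0845), 0.06 for CDT1 (0.381), 0.04 for ORC1 (0.434), 0.03 for CDC6 (0.555) and 0.02 for ORC2 (0.816). Geminin, the inhibitor of CDT1, stood at -0.07 (0.361). The signs of the values without a call depended on the setting, since ORC2 was at -0.01 with median centring, CDC6 and CDT1 were at -0.05 and -0.01 in lane 5 alone, and MCM2 was at 0.00 in lane 4 alone. With median centring, 39 of the 50 members were negative instead of 36.

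Of the 6 helicase activation genes, GINS4 and CDC45 were lower. GINS4 had 19.3 and 18.1 FPKM at 25 µg/ml and 6 h, 17.9 and 18.3 FPKM at 12 h and 17.5 and 17.8 FPKM at 24 h, against 22.9 and 22.6 FPKM, 20.5 FPKM, and 19.2 and 20.2 FPKM in untreated cells. The treated values were lower throughout and the gap was widest at 6 h. The change was -0.20 (SE 0.0332, adjusted p = 0.00528), the largest in size among the 50 members. CDC45, the helicase cofactor, had 67.3 and 66.2 FPKM at 25 µg/ml and 6 h, 63.3 and 63.8 FPKM at 12 h and 60.7 and 60.6 FPKM at 24 h, against 76.1 and 75.1 FPKM, 68.2 FPKM, and 69.0 and 65.6 FPKM in untreated cells. It too was separate at every time, with a change of -0.14 (SE 0.0336, adjusted p = 0.0256). The subunits of 1 complex did not share a value, since GINS2 stood at -0.08 (0.199), GINS1 at -0.03 (0.468) and GINS3 at 0.08 (0.101). MCM10, which helps the helicase start, stood at -0.03 (0.474).

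Of the 9 polymerase genes, POLA1, the catalytic subunit of polymerase alpha, was lower. It had 20.7 and 20.2 FPKM at 25 µg/ml and 6 h, 21.0 and 20.2 FPKM at 12 h and 19.2 and 18.5 FPKM at 24 h, against 20.6 and 20.9 FPKM, 22.3 FPKM, and 21.2 and 22.7 FPKM in untreated cells. The groups overlapped at 6 h and were separate at 12 and 24 h, and the change was -0.11 (SE 0.0316, adjusted p = 0.0477). Its partners POLA2, PRIM1 and PRIM2 had values of -0.03, -0.08 and -0.08 that did not pass. The delta subunits lay between -0.04 (POLD2) and 0.04 (POLD1), and the epsilon subunits POLE2 and POLE at 0.03 and 0.09, again without a call. POLE had the widest SE of the 50 members, 0.0593.

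The clamp, clamp loader and lagging strand genes gave calls in both directions. RFC5 and RFC2 are small subunits of the same loader, which opens PCNA and places it on DNA. RFC5 had 63.6 and 62.0 FPKM at 25 µg/ml and 6 h, 59.9 and 64.7 FPKM at 12 h and 69.7 and 67.7 FPKM at 24 h, against 61.4 and 60.3 FPKM, 57.9 FPKM, and 58.8 and 61.0 FPKM in untreated cells. It was higher at each time, most at 24 h, with a change of 0.11 (SE 0.0266, adjusted p = 0.0243). RFC2 had 52.2 and 48.7 FPKM at 25 µg/ml and 6 h, 46.4 and 48.5 FPKM at 12 h and 50.1 and 52.7 FPKM at 24 h, against 58.9 and 55.6 FPKM, 56.1 FPKM, and 52.8 and 50.6 FPKM in untreated cells. It was lower at 6 and 12 h and overlapped at 24 h, with a change of -0.14 (SE 0.0393, adjusted p = 0.0463).

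LIG1, the ligase that seals Okazaki fragments, had 53.1 and 54.2 FPKM at 25 µg/ml and 6 h, 51.6 and 51.8 FPKM at 12 h and 49.7 and 52.6 FPKM at 24 h, against 61.0 and 59.9 FPKM, 57.6 FPKM, and 52.4 and 48.7 FPKM in untreated cells. As for RFC2, the groups were separate at 6 and 12 h and overlapped at 24 h. The change was -0.10 (SE 0.0279, adjusted p = 0.0449). PCNA had a value of -0.12 that did not pass over all times (adjusted p = 0.0858), as did RFC3 at -0.09 (0.0888), RFC1 at -0.07 (0.197) and RFC4 at -0.06 (0.396). The flap endonuclease FEN1 and the single-strand binding subunits RPA1, RPA2 and RPA3 lay between -0.01 and 0.07, all without a call.

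None of the 4 nucleotide supply genes was called, by limma or at an unadjusted p under 0.05 (0 of 4). The smallest p belonged to TK1, the thymidine salvage kinase, which had 26.6 and 25.1 FPKM at 25 µg/ml and 6 h, 22.5 and 23.6 FPKM at 12 h and 26.8 and 27.4 FPKM at 24 h, against 27.4 and 27.6 FPKM, 25.4 FPKM, and 27.9 and 26.3 FPKM in untreated cells. Its groups overlapped at 24 h, and its value was -0.07 (SE 0.0366, adjusted p = 0.234). TYMS stood at -0.04 (0.441), RRM2 at -0.01 (0.785) and RRM1 at 0.02 (0.589).

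Among the 5 genes of chromatin assembly and maintenance methylation, all with negative values, UHRF1 was called. UHRF1 recognises hemimethylated DNA and brings the methyltransferase DNMT1 to it. It had 75.9 and 79.5 FPKM at 25 µg/ml and 6 h, 74.8 and 73.1 FPKM at 12 h and 76.3 and 79.4 FPKM at 24 h, against 82.1 and 82.9 FPKM, 83.9 FPKM, and 83.1 and 81.4 FPKM in untreated cells. All 6 treated libraries lay below all 5 untreated ones, and the change was -0.11 (SE 0.0224, adjusted p = 0.0107). DNMT1 stood at -0.09 (0.102), the histone chaperone subunits CHAF1B and CHAF1A at -0.08 (0.118) and -0.03 (0.582), and the histone chaperone ASF1B at -0.07 (0.309).

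Of the 3 fork protection genes, TIMELESS, which with its partner TIPIN holds helicase and polymerase together, was higher. It had 53.2 and 52.6 FPKM at 25 µg/ml and 6 h, 52.7 and 54.3 FPKM at 12 h and 60.3 and 60.7 FPKM at 24 h, against 54.8 and 52.5 FPKM, 50.8 FPKM, and 50.7 and 49.6 FPKM in untreated cells. The groups overlapped at 6 h and were separate at 12 and 24 h, with the wide gap at 24 h. The change over all times was 0.11 (SE 0.0218, adjusted p = 0.0137). The checkpoint mediator CLSPN and the polymerase alpha tether WDHD1 stood at 0.00 and -0.01.

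**Figure D3:**
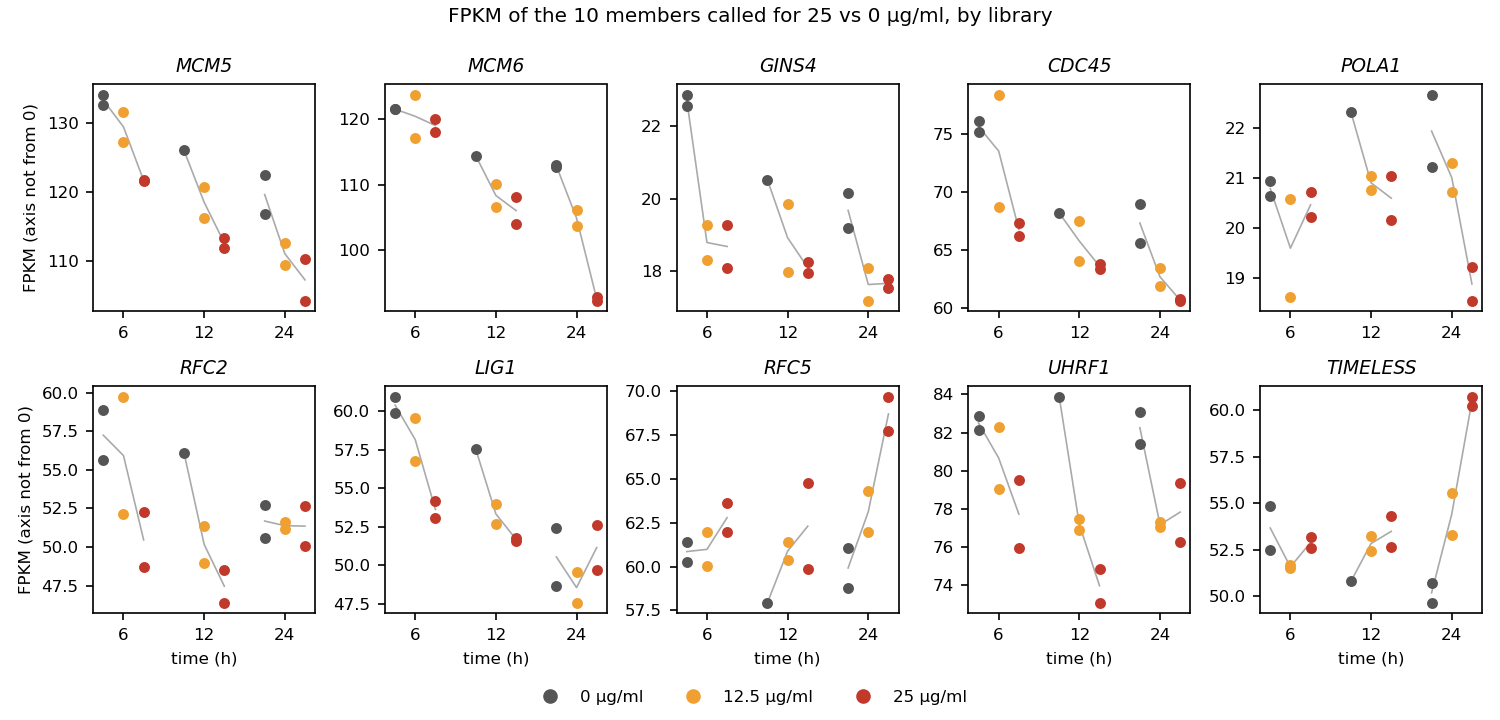
FPKM in each of the 17 libraries for the 10 members called for 25 against 0 µg/ml, by time in hours, with 0, 12.5 and 25 µg/ml from left to right within each time and a line through the group means; the FPKM axes do not start at 0. MCM5, GINS4, CDC45 and UHRF1 lie lower at 25 µg/ml at all 3 times, while the MCM6 and TIMELESS gaps are widest at 24 h (92.8 and 92.2 FPKM against 113 and 113 FPKM for MCM6).

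Taken by overlap rather than by model, the 25 µg/ml and untreated libraries did not overlap at any of the 3 times for 9 members. Lower at all 3 times were MCM3, MCM5, MCM6, CDC45, GINS4, UHRF1 and CHAF1B, 7 of 50 members (14%) against 5.81% of all genes tested. Higher at all 3 times were ORC6 and RFC5, 2 of 50 (4%) against 7.74% of all genes. Only 1 untreated library stands behind the 12 h part of these counts.

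Within a single lane, no member passed the test over the times the lane holds (0 in lane 4 and 0 in lane 5, with 42 and 8 of all genes called by limma), and the direction was the same in both lanes for each of the 10 called members. These members were chosen on the libraries of both lanes together, so the shared direction is not separate support for the calls. For MCM5 the values were -0.14 in lane 4 and -0.15 in lane 5, for GINS4 -0.19 and -0.24, for CDC45 -0.16 and -0.14, for UHRF1 -0.10 and -0.12, and for POLA1 -0.10 and -0.08. The value for MCM6 was -0.15 in lane 4, which holds the 24 h libraries, and -0.08 in lane 5. For TIMELESS it was 0.11 and 0.04, for RFC5 0.12 and 0.07, for RFC2 -0.09 and -0.21, and for LIG1 -0.09 and -0.15. With lane as a covariate, 10 members were called, 9 of them among the 10 above, and 9.8% of all genes were called. Correction of every library for the GC content and length of its genes, which the libraries standing apart followed, kept all 10 calls and raised the count to 21 (18 lower, 3 higher), with 1815 of 10210 genes called (17.8%). The members added were MCM2, MCM3, MCM4, MCM7, POLD2, PCNA, RFC1, RFC3, CHAF1B and DNMT1, all lower, and ORC6, higher. After this correction the changes were -0.07 for MCM2, -0.12 for MCM3, -0.06 for MCM4, -0.19 for MCM5, -0.15 for MCM6 and -0.11 for MCM7, so that all 6 ring subunits passed.

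**Figure D4:**
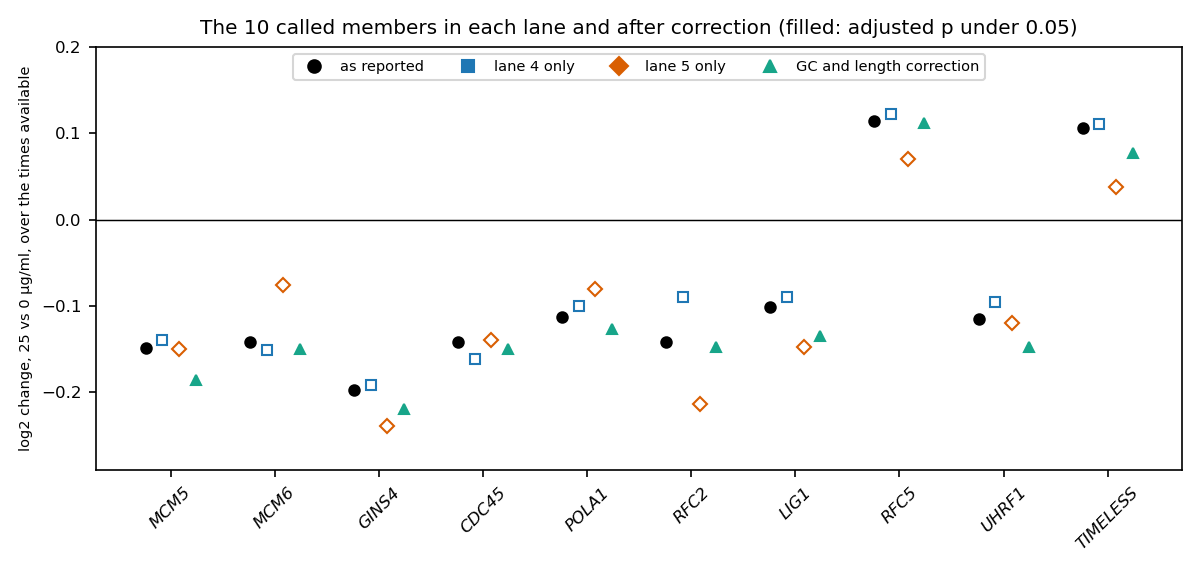
Log2 change for 25 against 0 µg/ml of the 10 called members as reported, within lane 4, within lane 5 and after correction for GC content and gene length; filled symbols have an adjusted p under 0.05. Every symbol of a gene lies on the same side of 0, and no symbol within a single lane is filled. The members were chosen on the libraries of both lanes together, so the shared side is not separate support.

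The calls also rested on single libraries to different degrees. MCM5, MCM6, GINS4 and TIMELESS kept their calls when any 1 of the 17 libraries was left out. UHRF1 lost its call without the untreated 12 h library (-0.08, adjusted p = 0.0743). Leaving out that library removes the 12 h effect, so values without it average 6 and 24 h only. RFC5 lost its call without untreated 24 h replicate 1, 25 µg/ml 6 h replicate 1, untreated 6 h replicate 2 or 25 µg/ml 12 h replicate 2 (adjusted p between 0.0586 and 0.0669). CDC45 lost its call without either 25 µg/ml library at 6 h, either at 12 h, 25 µg/ml 24 h replicate 2, either untreated library at 6 h or untreated 24 h replicate 1 (adjusted p between 0.0509 and 0.0665). LIG1, POLA1 and RFC2 lost theirs in 13, 14 and 15 of the 17 cases, and RFC2 was at -0.09 (adjusted p = 0.223) without the untreated 12 h library. Leaving out either 12.5 µg/ml library at 6 h raised the count of called members, and the share of all genes called rose with it. The count was 5 without 25 µg/ml 6 h replicate 1, 25 µg/ml 12 h replicate 2 or untreated 6 h replicate 2, and 6 without 25 µg/ml 6 h replicate 2, 25 µg/ml 12 h replicate 1, untreated 6 h replicate 1, the untreated 12 h library or untreated 24 h replicate 1. Without both libraries that stood apart, 15 members were called and all 10 were among them.

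At single times the calls came at 24 h. At 6 h, 0 of 50 members were called (0.225% of all genes), with 9 at an unadjusted p under 0.05, all lower (18%, against 6.58% of all genes lower at that threshold). At 12 h, 0 of 50 were called (0.0499% of all genes), with 7 at an unadjusted p under 0.05, all lower (14%, against 3.2% of all genes). At 24 h, 7 of 50 members (14%) were called against 16.5% of all genes tested, a share near the background. The median change at 24 h was -0.01 over members and 0.04 over all genes. MCM6 at -0.28 (SE 0.0361, adjusted p = 0.000972) and TIMELESS at 0.27 (SE 0.035, adjusted p = 0.0011) had the smallest adjusted p-values, followed in that order by RFC5 at 0.19 (0.0127), POLA1 at -0.21 (0.0206), MCM5 at -0.16 (0.023) and PCNA at -0.23 (0.0321). PCNA had 303 and 275 FPKM at 25 µg/ml against 334 and 344 FPKM in untreated cells, with the lower treated value in the library whose deviations followed GC content, and without that library its value was -0.16 (adjusted p = 0.238). Its call was also lost without untreated 24 h replicate 1 (-0.25, adjusted p = 0.0806), without untreated 24 h replicate 2 (-0.21, 0.173) and with no filter on low values (0.0595).

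The seventh call at 24 h, PRIM2, the large primase subunit, is named after its values were seen. It had 35.7 and 31.9 FPKM at 25 µg/ml against 36.7 and 42.3 FPKM in untreated cells, with a change of -0.22 (adjusted p = 0.0488). PRIM2 has near-identical genomic copies that may share its reads, so its value is uncertain. Without 25 µg/ml 24 h replicate 2, 4 members were called at 24 h, and POLA1 was at -0.18 (adjusted p = 0.133), while MCM6, TIMELESS, RFC5 and MCM5 kept their calls. MCM5 lost its call at 24 h without untreated 24 h replicate 1 (-0.12, adjusted p = 0.131), untreated 24 h replicate 2 (-0.19, 0.0553) or 25 µg/ml 24 h replicate 1 (-0.12, 0.101), RFC5 without untreated 24 h replicate 1 (0.17, 0.0767), and POLA1 also without untreated 24 h replicate 2 (-0.16, 0.163). Fitted on only the groups compared, no call at 24 h remained (MCM6 at 0.0761 and TIMELESS at 0.0844 by adjusted p). The count fell without either untreated library at 24 h and rose without either 12.5 µg/ml library at 6 h. The share of all genes called moved in the same direction each time. With GC and length correction 22 members were called at 24 h (19 lower, 3 higher), against 1973 of 10210 genes (19.3%; 891 higher, 1082 lower).

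**Figure D5:**
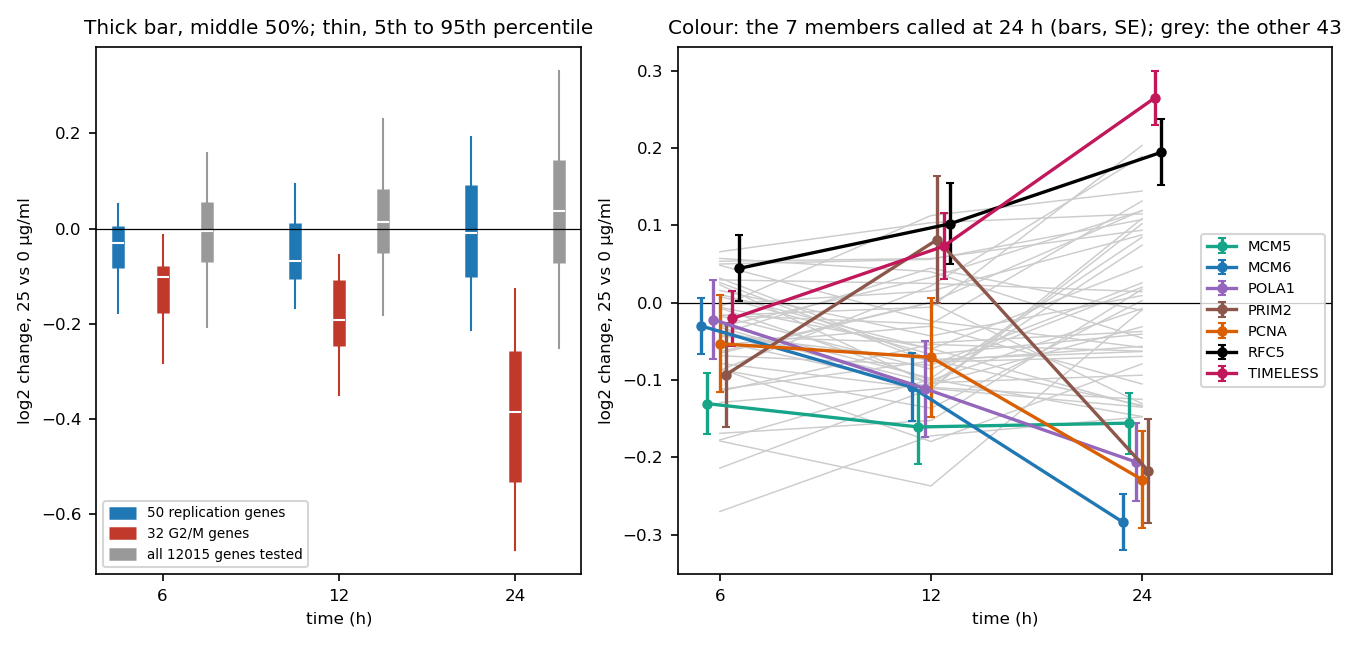
Left, log2 change for 25 against 0 µg/ml at 6, 12 and 24 h for the 50 replication genes, the 32 G2 and mitotic genes and all 12015 genes tested, with thick bars for the middle 50% of genes, thin bars for the 5th to 95th percentile and a white tick at the median. Right, the same change per member, in colour with SE bars for the 7 called at 24 h; the G2 and mitotic median falls to -0.39 at 24 h, while the replication genes spread to both sides of 0 around -0.01.

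The call over all times drew on 24 h to a different extent for each gene. Leaving out the 24 h libraries, no member was called (46 of all genes). MCM5 was still at -0.15, GINS4 at -0.22, CDC45 at -0.14, RFC2 at -0.21, LIG1 at -0.16 and UHRF1 at -0.13, while MCM6 was at -0.07, POLA1 at -0.07, RFC5 at 0.07 and TIMELESS at 0.03. A test of the difference of the 25 against 0 µg/ml effect between 24 and 6 h called 2 of 50 members (4%), against 3.30% of all genes. TIMELESS changed by 0.29 more at 24 h than at 6 h (SE 0.0495, adjusted p = 0.0172), and MCM6 by -0.25 (SE 0.0511, adjusted p = 0.0292). The time difference is partly a lane difference, since only 1 library of each 6 h group shared lane 4 with the 24 h libraries. In lane 4 alone the differences were 0.31 for TIMELESS and -0.27 for MCM6 (adjusted p = 0.322 for each, with a range over alternatives of 0.00872 to 0.322 for TIMELESS and 0.00842 to 0.322 for MCM6). Each call was lost on leaving out most single libraries behind the contrast, listed with the sensitivity values. LIG1 and RFC2, whose groups overlapped at 24 h and not at 6 h, had differences of 0.19 (adjusted p = 0.123) and 0.17 (adjusted p = 0.298), which did not pass.

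The 12.5 µg/ml dose gave no calls among the members. Against untreated cells over all times, 0 of 50 members were called by limma (0.283% of all genes), with 8 at an unadjusted p under 0.05, all lower (16%, against 4.63% of all genes lower at that threshold). Values at 12.5 µg/ml and 25 µg/ml, both against the same untreated libraries, were -0.18 and -0.20 for GINS4, -0.08 and -0.15 for MCM5, -0.07 and -0.14 for MCM6, -0.08 and -0.11 for UHRF1, -0.07 and -0.14 for CDC45, -0.08 and -0.11 for POLA1, and -0.07 and -0.10 for LIG1. GINS4 had the smallest adjusted p at 12.5 µg/ml, 0.0698, with 18.3 and 19.3 FPKM at 12.5 µg/ml and 6 h against 22.9 and 22.6 FPKM in untreated cells. Setting 25 against 12.5 µg/ml, 0 of 50 members were called by limma (0.283% of all genes), with 2 higher and 5 lower at an unadjusted p under 0.05 (14%, against 11.9% of all genes). The values were -0.08 for MCM6 (adjusted p = 0.206) and 0.07 for TIMELESS (0.236). With GC and length correction the count was 1 of 50, against 1.58% of all genes. The count rose without 12.5 µg/ml 6 h replicate 2, and the share of all genes called rose with it, so the rise is not particular to the members.

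Members also differed between 24 and 6 h. In untreated cells, 3 of 50 members were lower at 24 h (6%, against 1.77% of all genes called lower and 2.33% in either direction). LIG1 had 52.4 and 48.7 FPKM at 24 h against 61.0 and 59.9 FPKM at 6 h (-0.25, SE 0.0448, adjusted p = 0.0186). MCM7 had 259 and 246 FPKM at 24 h against 288 and 296 FPKM at 6 h (-0.21, SE 0.045, adjusted p = 0.0398), and RRM2 had 196 and 203 FPKM at 24 h against 221 and 230.1 FPKM at 6 h (-0.18, SE 0.0403, adjusted p = 0.0452). The groups were separate for all 3. No member passed when lane 4 was used alone (values of -0.27 for LIG1, -0.19 for MCM7 and -0.15 for RRM2). The count moved to 0 without either untreated library at 6 h or untreated 24 h replicate 2, to 1 without most other single libraries, to 5 without either 25 µg/ml library at 24 h and to 7 without either 12.5 µg/ml library at 6 h.

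In cells at 25 µg/ml, 8 of 50 members differed between 24 and 6 h (16%, against 19.1% of all genes), 3 lower (7.32% of all genes) and 5 higher (11.8%). The lower ones were ring subunits. MCM6 was at 92.8 and 92.2 FPKM at 24 h against 120.1 and 118 FPKM at 6 h (-0.36, SE 0.0361, adjusted p = 0.000436), MCM7 changed by -0.27 (SE 0.045, adjusted p = 0.00326) and MCM5 by -0.18 (SE 0.0394, adjusted p = 0.0104). ASF1B was higher, at 70.1 and 67.1 FPKM at 24 h against 54.4 and 54.4 FPKM at 6 h (0.33, SE 0.0671, adjusted p = 0.00764), as were TIMELESS (0.19, SE 0.035, adjusted p = 0.00501) and POLD2 (0.20, SE 0.0493, adjusted p = 0.0179). FEN1 at 0.20 (adjusted p = 0.0367) and ORC1 at 0.16 (0.038) were also called and are named after their values were seen. POLD2 was at 0.07 after GC and length correction (adjusted p = 0.0558, with a range over alternatives of 0.00418 to 0.135), and in lane 4 alone 1 member was called. The count fell without 25 µg/ml 24 h replicate 2 or either 25 µg/ml library at 6 h, and rose without either 12.5 µg/ml library at 6 h. The share of all genes called moved in the same direction each time.

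At 12.5 µg/ml, 6 of 50 members were lower at 24 h than at 6 h (12%, against 3.82% of all genes called lower and 6.03% in either direction), and 0 were higher. They were MCM7 (-0.31, limma adjusted p = 0.00526), LIG1 (-0.26, 0.0106), GINS2 (-0.24, 0.0438), CDC45 (-0.22, 0.0368), MCM5 (-0.22, 0.0128) and MCM6 (-0.20, 0.0135). Replicate 1 at 6 h is the library whose deviations followed gene length. In it, MCM7 had 309.5 FPKM, against 292 FPKM in replicate 2, and CDC45 had 78.3 FPKM, against 68.6 FPKM, and its part in these calls was not tested.

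Further genes of replication, 63 of 64 listed and tested, gave counts close to those of the members. For 25 µg/ml against untreated cells over all times, 12 of 63 were called (19%, against 9.47% of all genes), 10 lower and 2 higher, with a median of -0.04. Among the lower ones were ORC5, an origin recognition subunit, MCMBP, which binds MCM subunits, CHTF8, part of an alternative clamp loader, TOP2A, the topoisomerase that decatenates sister chromatids (-0.31, SE 0.0365, adjusted p = 0.000863), TIPIN, the partner of TIMELESS (-0.13, SE 0.0341, adjusted p = 0.0337), DTYMK and SHMT1 of thymidylate synthesis, the zinc finger factor ZNF367, and DTL, which targets CDT1 for destruction. The higher ones were DBF4B, an activator of the CDC7 kinase (0.14, adjusted p = 0.00293), and ATRIP, the partner of the checkpoint kinase ATR (0.17, adjusted p = 0.0308). TIMELESS was thus higher and TIPIN lower over all times.

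At 24 h, 15 of the 63 were called (23.8%, against 16.5% of all genes), 9 lower and 6 higher. Among the lower ones were TOP2A (-0.52, adjusted p = 0.000539), TOP1, TIPIN, DCK, the histone chaperones ASF1A and NASP, MCMBP and ORC5. The higher ones were TONSL (0.37, adjusted p = 0.00874), DBF4B (0.33, adjusted p = 0.000362), the helicase RECQL4 (0.28), the ribonuclease H2 subunit RNASEH2C (0.25), ATRIP (0.24) and the transcription factor E2F1 (0.15, adjusted p = 0.0489).

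The 32 genes of G2 and mitosis, listed for comparison with earlier results of these data known, had larger changes. Of these, 28 were lower and 0 higher over all times (87.5% called) with a median of -0.22. Of the 50 members, 8 were lower and 2 higher (20% called) with a median of -0.04. Over all genes tested, 4% were called lower and 5.47% higher, with a median of 0.02. Summed FPKM at 24 h was 4325 and 4283 over the members at 25 µg/ml against 4408 and 4401 in untreated cells, and 1943 and 1910 over the G2 and mitotic genes at 25 µg/ml against 2528 and 2578 in untreated cells. The 2 lists were described side by side by their counts and medians, and a difference between them was not tested.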

How the data were processed

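RNA was sequenced in 17 libraries of Jurkat cells, polyA-selected with a TruSeq kit per the labels' protocols. The authors deposited 1 table of FPKM values per gene. TopHat2 2.1.0 is named per the submitters' processing notes. Which program made the FPKM values, and on which genome build and gene models, is not given in the sources used here. Of 25593 lines, 45 repeated symbols were reduced to the line with the highest mean. Absolute depth is unknown, and relative depth came from 6620 low genes (tolerance 0.03 on the log2 scale).

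Genes whose mean reached 1 FPKM (12015) were tested on log2(FPKM + 1) with limma 3.58.1 in R 4.3.3, a scale that understates the change of low genes. Each of 9 groups had 1 mean, leaving 8 residual degrees of freedom plus 3 prior ones, with a variance trend. The single untreated library at 12 h was assumed to vary like the others. An effect over all times averages those at 6, 12 and 24 h. Tests were two-sided and adjusted by Benjamini-Hochberg over all genes tested.

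In 20 simulations with 200 of 12015 genes changed, the test over all times recovered 66.0% of changes of 0.25 and 93.4% of changes of 0.5 on the log2 scale, with 3.97% false calls. At 24 h it recovered 26.8% and 75.6%. Simulated noise was independent between genes and the change was the same at every time. Deviations by GC content or length were not simulated, so the share of false calls may not hold for these libraries. Both sizes exceed every change of a member over all times (-0.20 to 0.11), and recovery of changes that small was not simulated.

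Members, roles and further lists were chosen with earlier results of these data known. Values, change and test are given for each member called over all times, the smallest p in each role, and up to 6 members with the smallest adjusted p in each other comparison. For GC content and length, GENCODE v29 models on GRCh38 were matched by symbol for 84.98% of tested genes and all 50 members, and the deposited table may use another build. The correction subtracted a smooth curve of each library's deviation on GC content, then length. Alternatives also changed pseudocount, filter, scaling, trend, lane, replicate block and the libraries used. Duplicate libraries correlated at 0.979 to 0.986 across genes, and no pair was identical. A few genes of the further lists are not reported here.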

Additional observations from a re-analysis of the deposited data

Results flagged for a closer look

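Both members flagged here had an effect of 25 µg/ml against untreated cells that differed between 24 and 6 h by a test of the difference itself. MCM6 changed by -0.28 at 24 h and -0.03 at 6 h, a log2 difference of -0.25 (SE 0.0511, limma adjusted p = 0.0292). TIMELESS changed by 0.27 at 24 h and -0.02 at 6 h, a difference of 0.29 (SE 0.0495, limma adjusted p = 0.0172). Both treated libraries lay on the same side of both untreated libraries at 24 h for each gene. That is common at 24 h, where 37.5% of all genes were separate as higher and 23.1% as lower. No group was large enough for a search for single outlying libraries, and no file or column lay outside the comparisons.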

How the results depend on the processing

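Counts of called members are given as lowest to highest over leaving out 1 library. The share of all genes called also moved with the library left out, so these ranges are not particular to the members. They were 5 to 16 for 25 against 0 µg/ml over all times (10 as reported), 0 to 2 at 6 h (0), 0 to 0 at 12 h (0), 3 to 16 at 24 h (7), 0 to 5 for 12.5 against 0 µg/ml (0), 0 to 7 for 25 against 12.5 µg/ml (0), 0 to 7 for 24 against 6 h in untreated cells (3), 3 to 15 at 25 µg/ml (8) and 0 to 5 for the difference between 24 and 6 h (2). GC and length correction gave 21, 1, 2, 22, 3, 1, 9, 14 and 5 in the same order. The shares of all genes called with that correction were 17.8%, 0.979%, 0.656%, 19.3%, 2.1%, 1.58%, 9.26%, 23.2% and 3.28%.

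In that correction with the replicate block the counts were 21 over all times, 1 at 6 h, 21 at 24 h, 3 for 12.5 against 0 µg/ml, 1 for 25 against 12.5 µg/ml, 8 in untreated cells, 15 at 25 µg/ml and 4 for the difference. The shares of all genes called were 16.4%, 0.666%, 18.7%, 1.82%, 1.49%, 8.97%, 22.2% and 3.18% in that order. Equal replicate numbers did not pair the libraries. The difference of replicate 1 minus replicate 2 within a group correlated between groups at -0.18 to 0.13 over 28 group pairs, with 2 over 0.1. The replicate block alone gave 7 members over all times (POLA1, RFC2 and LIG1 did not pass), 6 at 24 h and 1 for untreated cells at 24 against 6 h. The shares of all genes called were 8.06%, 15.2% and 1.95%.

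Lane 4 alone gave 0 over all times, 2 at 24 h, 0 in untreated cells, 1 at 25 µg/ml and 0 for the difference, and lane 5 alone gave 0 over all times. Fitting only the groups compared gave 0 at 24 h, 0 in untreated cells, 0 at 25 µg/ml and 1 for the difference. The shares of all genes called were 0.0999%, 0.0166%, 0.183% and 0.841% in that order. Within single lanes, too, the share of all genes called was below the one reported, so these falls are not particular to the members. Without the 12 h libraries the counts were 4 over all times, 4 at 24 h, 0 in untreated cells and 0 for the difference, and without the 24 h libraries 0 over all times. Median centring gave 13 at 24 h and 1 in untreated cells, and ended the calls of RFC5 (0.09, adjusted p = 0.077, range over alternatives 0.00573 to 0.407) and TIMELESS (0.08, 0.0533, range 0.00654 to 0.736) over all times. Quantile normalization gave 11 at 24 h, 1 for 12.5 against 0 µg/ml and 13 at 25 µg/ml, and ended the call of UHRF1 (-0.11, 0.0617, range 0.00154 to 0.224). With median centring the shares of all genes called were 14.5% at 24 h and 2.21% in untreated cells. With quantile normalization they were 15.9% at 24 h, 0.416% for 12.5 against 0 µg/ml and 21.9% at 25 µg/ml. Without a filter on low values, or without a variance trend, 7 members were called over all times (POLA1, RFC2 and LIG1 did not pass) and 1 in untreated cells. The shares of all genes called were 4.86% and 1.1% without the filter, and 9.29% and 2.26% without the trend. Leaving out both libraries that stood apart, chosen after seeing the data, gave 10 in untreated cells.

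The difference between 24 and 6 h lost the calls of both MCM6 and TIMELESS without untreated 24 h replicate 2, 25 µg/ml 24 h replicate 2 or any untreated or 25 µg/ml library at 6 h (adjusted p 0.0583 to 0.11), and that of MCM6 without untreated 24 h replicate 1 (0.0616). None of the named calls changed sign under the alternatives run, while several members without a call did. The named calls were chosen on the same libraries, so their kept sign is not separate support. The cause was not tested where a count moved, and fewer libraries leave fewer residual degrees of freedom. Precision is limited by 2 libraries a group and by the unknown absolute depth.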
